A study of Mus musculus with 8 samples.

Results

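The genes described here are 35 genes of glucose uptake, glycolysis, lactate handling and the response to low oxygen, taken by symbol from the 20029 genes of the deposited expression table. All 35 were in the table. Their RNA was measured in CD8+ T cells that had infiltrated MC38-OVA tumours under the skin of Pglyrp1 KO mice (n = 4, libraries KO 1 to 4) and WT mice (n = 4, libraries WT 6 to 9). MC38-OVA is a mouse colon carcinoma line that carries the model antigen ovalbumin, and hosts of both genotypes received the same line in the flank. The KO hosts were B6.129S4-Pglyrp1tm1.1Lky/J and the WT hosts C57BL/6J. The labels do not say whether they were littermates, and give neither age nor sex. Each library came from 1000 sorted cells that were alive and positive for CD45, TCR beta and CD8. Pglyrp1 encodes a secreted protein that binds bacterial peptidoglycan.

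Glycolysis splits glucose to pyruvate in the cytosol and yields ATP without oxygen. Activated CD8+ T cells take up more glucose than naive ones and turn much of the pyruvate to lactate, which is exported. HIF-1, a pair of the oxygen-regulated subunit encoded by Hif1a and its constant partner ARNT, drives transcription of glucose transporters, most glycolytic enzymes, Ldha and further genes such as Bnip3 and Ndrg1. In oxygenated cells, prolyl hydroxylases of the Egln family mark HIF-1 alpha for destruction. T cell receptor signals, mTORC1 and Myc raise many of the same genes in the presence of oxygen.

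None of the 35 genes passed the test across all genes, and 1 of them separated the genotypes in every library. Ndrg1, a hypoxia-induced gene, had its lowest KO value above its highest WT value. Most glycolytic enzymes, both glucose transporters and most lactate genes had higher means in KO cells with overlapping groups. WT 6 and WT 9 were below the 6 other libraries for 25 of 32 genes tested (17.3% of all genes). WT 7 was the highest WT library for 26 (32.6% of all genes) and the highest of all 8 for 11 (15.7%). The deposited values, rescaled to 1000000 per library, are called TPM here, after their deposited name. How they were scaled is not given, so comparisons of level between genes assume that they are per transcript length. Fold changes are differences of mean log2(TPM + 1), KO minus WT, tested with limma and adjusted by the Benjamini-Hochberg method over the 10732 genes that reached 1 TPM in 4 or more libraries. Of the 35 genes, 32 passed this filter, and Vegfa, Ak4 and Adm did not. Among the 32, 30 had a positive fold change (55.2% of all genes tested did) and 2 a negative one (44.8% of all genes); the positive ones were 28 to 29 under 3 other scalings, with Bnip3l turning in all 3 and Hk1 in the scaling without ribosomal and top genes. Their median was 0.70 on the log2 scale, against 0.041 for all genes. At an adjusted p under 0.05, 0 of 32 were called by limma, where 0.0186% of all genes were called higher in KO and 0.00932% lower. At an unadjusted p under 0.05, 9 were higher in KO (background 6.01%) and 0 lower (background 3.07%). Groups did not overlap for 1 gene higher in KO (background 2.62%) and for 0 lower (background 2.4%). The count of 1 in 32, which is Ndrg1, was thus near the background.

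**Figure D1:**
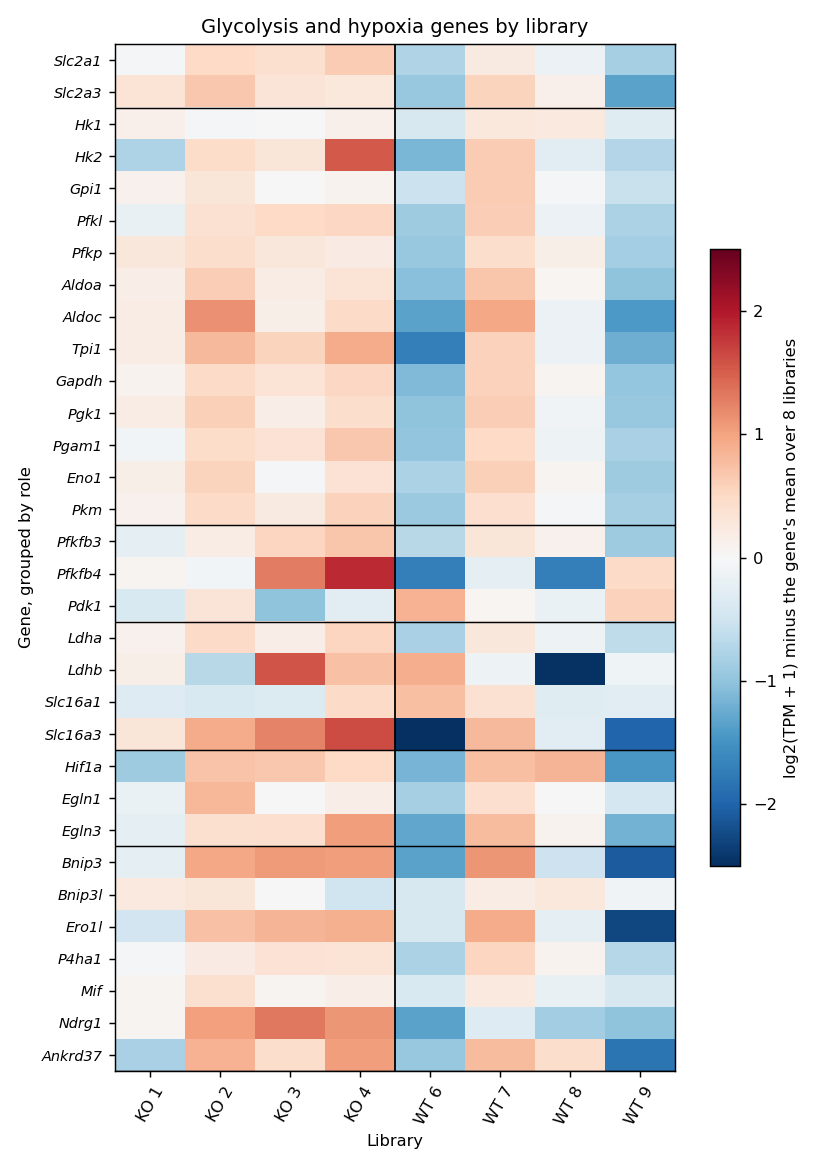
Level of the 32 genes past the filter (rows, grouped by role) in each library (columns, KO left of WT), as log2(TPM + 1) minus the gene's mean over the 8 libraries. Red is above and blue below that mean; the columns of WT 6 and WT 9 are blue in nearly all rows of the enzymes, whereas WT 7 resembles KO 2 and KO 4.

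The libraries differed in several ways besides genotype. Pglyrp1, the targeted gene, had a value of 0 in each of KO 1 to 4, against 123, 210, 208 and 153 TPM in WT 6 to 9. The T cell markers Cd3d, Cd3e, Cd3g, Cd247, Cd8a and Cd8b1 summed to 4432 to 4878 TPM in KO and 4396 to 6009 TPM in WT libraries. Among them Cd8b1 was lower in every KO library (1039 to 1329 TPM) than in every WT library (1340 to 1728 TPM), with a limma adjusted p of 0.502. Groups overlapped for the other T cell markers, and 2.4% of all genes tested were apart and lower. Ribosomal protein genes took 20.5% to 30.0% of the TPM in KO libraries, 36.9% and 36.5% in WT 6 and WT 9, and 23.2% and 22.9% in WT 7 and WT 8. The 6 naive and memory markers (Ccr7, Tcf7, Lef1, Il7r, S1pr1 and Klf2) averaged 6.81, 6.29, 5.88 and 5.08 on the log2(TPM + 1) scale in KO 1 to 4, against 7.42, 5.78, 6.14 and 7.34 in WT 6 to 9. The 6 proliferation markers (Mki67, Top2a, Ccnb1, Cdk1, Birc5 and Ccna2) averaged 4.80 in KO 1, 5.60 to 5.85 in KO 2 to 4, 4.52 and 4.77 in WT 6 and WT 9, and 6.12 and 5.76 in WT 7 and WT 8. WT 6 and WT 9 thus held the highest naive and memory values and the lowest proliferation values of the 8, and KO 1 lay nearest to them among KO libraries. Among myeloid markers, 20 of the 21 listed were in the table and 15 of the 16 tested had positive fold changes. The 1 with a negative fold change was Apoe, at 0.693 to 4.21 TPM in KO and 3.47 to 49.6 TPM in WT libraries. The myeloid markers summed to 553, 442, 9400 and 12556 TPM in KO 1 to 4, against 326, 296, 282 and 1187 TPM in WT 6 to 9. WT 9 was thus above KO 1 and KO 2. Csf1r, a defining macrophage gene, was at 38.9 and 109 TPM in KO 3 and KO 4, at 6.93 and 0.302 TPM in KO 1 and KO 2, at 0 in WT 6 and WT 8, and at 0.450 and 5.51 TPM in WT 7 and WT 9. Natural killer cell markers summed to 61.0 to 94.2 TPM in KO and 22.5 to 40.6 TPM in WT libraries, and tumour epithelial markers to 4.85 to 80.8 TPM in KO and 3.15 to 21.1 TPM in WT libraries. B cell markers summed to 6.05 to 20.8 TPM in KO libraries, 46.3 and 49.6 TPM in WT 6 and WT 9, and 7.20 and 8.33 TPM in WT 7 and WT 8. The 5 CD4 and regulatory T cell markers (Cd4, Foxp3, Il2ra, Ctla4 and Ikzf2) summed to 116 to 227 TPM in KO and 51.2 to 180 TPM in WT libraries. Among them only Cd4 had groups apart, at 4.50 to 66.7 TPM in KO and 0.393 to 2.25 TPM in WT libraries. Haemoglobin and platelet genes were highest in KO 1, KO 4 and WT 9 (1239.5, 969 and 467 TPM in sum). The part of these differences in the results was not tested. In bulk samples, fewer cells of a type and less RNA per cell cannot be told apart.

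**Figure D2:**
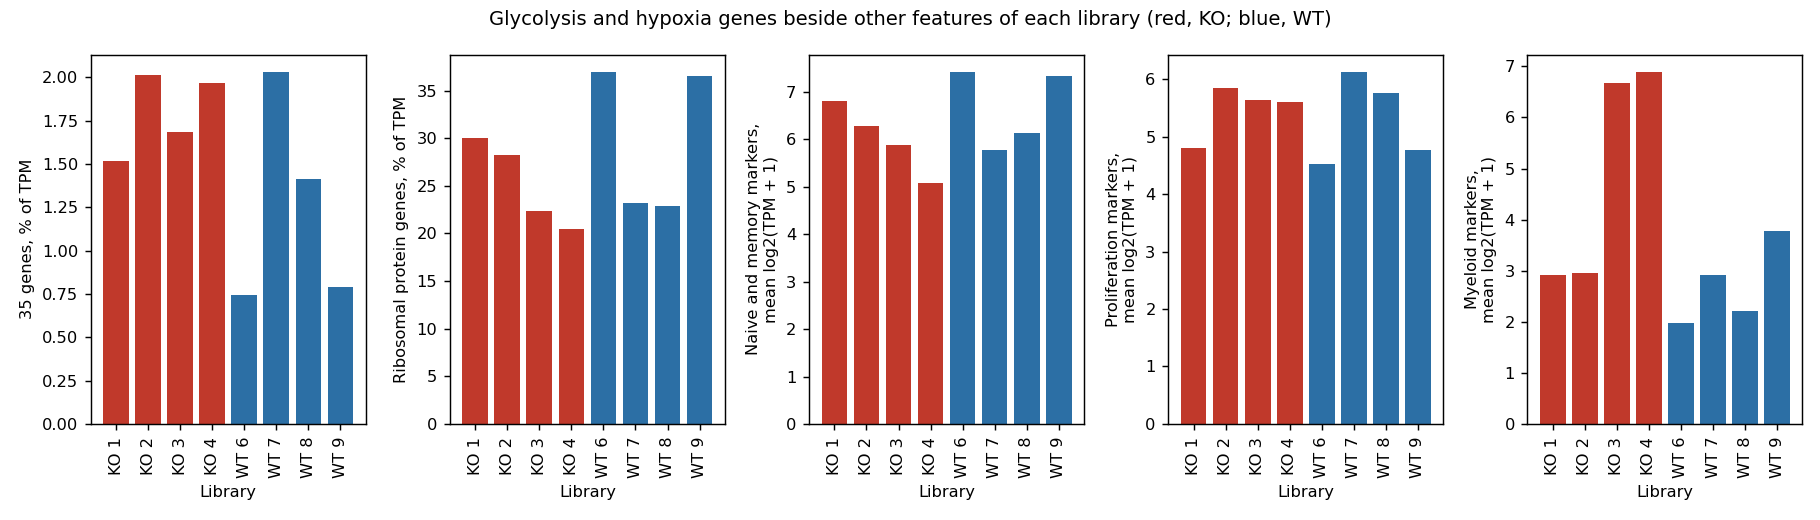
For each library (KO in red, left of WT in blue), the share of TPM taken by the 35 genes and by ribosomal protein genes, and the mean log2(TPM + 1) of naive and memory, proliferation and myeloid markers. WT 6 and WT 9 have the smallest shares for the 35 genes (0.747% and 0.791%) and the largest ribosomal shares, and the myeloid bars are tallest in KO 3 and KO 4.

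Together the 35 genes took 1.52%, 2.01%, 1.69% and 1.97% of the TPM in KO 1 to 4, against 0.747%, 2.03%, 1.41% and 0.791% in WT 6 to 9. WT 7 had the largest share of the 8 libraries and WT 6 the smallest. Gapdh, the glyceraldehyde-3-phosphate dehydrogenase gene and the most abundant of the set, ranked 21 among all genes by its mean over the 8 libraries. Ldha ranked 97, Aldoa 105, Mif 128, Eno1 131 and Pkm 135. At the other end, Pfkfb4 ranked 9108, Adm 10563, Ak4 11968 and Vegfa 15144. WT libraries varied more than KO libraries: the SD of log2(TPM + 1) was larger in WT for 28 of the 32 genes, against 56.2% of all genes tested.

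The promoters of the 4 genes of smallest p with a sequence in the table used are shown for the short core letters that HIF-1 binds, ACGTG or GCGTG, since members of this set are known HIF-1 targets. Each is RefSeq sequence of build GRCm38.p6, from 250 bases before to 50 bases after the start site, read in the direction of transcription, with matches on both strands in capitals. The Slc16a3 promoter is chr11:120948817-120949116 (plus strand), that of Slc2a1 chr4:119108495-119108794 (plus strand), the first listed one of Ldha chr7:46845554-46845853 (plus strand), and that of Tpi1 chr6:124814109-124814408 (minus strand). On the other strand the letters read CACGT or CACGC.
Slc16a3: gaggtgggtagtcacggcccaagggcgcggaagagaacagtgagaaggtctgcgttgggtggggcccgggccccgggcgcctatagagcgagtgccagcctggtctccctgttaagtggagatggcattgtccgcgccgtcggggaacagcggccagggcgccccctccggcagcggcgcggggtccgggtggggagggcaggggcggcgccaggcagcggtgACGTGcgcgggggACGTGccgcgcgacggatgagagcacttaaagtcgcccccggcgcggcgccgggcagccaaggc
Slc2a1: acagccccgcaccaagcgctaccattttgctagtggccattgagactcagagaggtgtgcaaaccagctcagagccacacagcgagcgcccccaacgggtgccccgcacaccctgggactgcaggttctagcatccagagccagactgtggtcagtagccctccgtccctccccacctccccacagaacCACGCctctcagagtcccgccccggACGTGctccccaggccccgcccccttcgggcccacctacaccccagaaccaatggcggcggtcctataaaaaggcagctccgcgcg
Ldha: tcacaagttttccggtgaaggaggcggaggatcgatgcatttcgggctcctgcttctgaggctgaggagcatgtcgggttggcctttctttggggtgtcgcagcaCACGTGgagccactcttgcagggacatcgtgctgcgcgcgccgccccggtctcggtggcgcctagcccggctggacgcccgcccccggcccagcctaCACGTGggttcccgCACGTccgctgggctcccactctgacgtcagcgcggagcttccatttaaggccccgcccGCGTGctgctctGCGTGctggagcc
Tpi1: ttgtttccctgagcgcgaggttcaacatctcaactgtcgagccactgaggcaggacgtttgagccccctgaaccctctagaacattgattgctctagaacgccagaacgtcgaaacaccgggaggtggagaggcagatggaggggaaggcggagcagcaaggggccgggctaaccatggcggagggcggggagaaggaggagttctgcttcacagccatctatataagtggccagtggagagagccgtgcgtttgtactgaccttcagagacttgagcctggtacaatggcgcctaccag
Slc16a3 had ACGTG starting 27 and 14 bases before the start site (positions -27 and -14), and Slc2a1 had ACGTG at -36 and CACGC at -61. In Ldha the letters CACGTG occurred at -145 and at -48, where ACGTG and CACGT overlap, with CACGT again at -34 and GCGTG at 26 and 38, for 7 matches with overlaps counted. The Tpi1 window held no match. Of the 35 genes, 32 had a promoter in the table (Ero1l under the symbol Ero1a), and 30 of these, all but Gpi1 and Tpi1, held a match in at least 1 of their promoters. Those without an entry were Slc2a3, Bnip3l and Ndrg1. Among genes tested with a promoter in the table, 68.2% did, and among all 32851 promoters of this length 43.8% did. These letters are common, and a match describes the sequence without showing binding.

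Glucose enters T cells mainly through GLUT1 and GLUT3. Slc2a1, which encodes GLUT1, was at 25.6, 37.2, 34.7 and 40.8 TPM in KO 1 to 4, against 15.0, 30.6, 23.3 and 14.2 TPM in WT 6 to 9. Only KO 1 lay within the WT range, below WT 7. KO cells averaged 34.6 ± 6.47 TPM and WT cells 20.8 ± 7.73 TPM (SD, n = 4 each; two-sided exact permutation p = 0.0571). The log2 fold change was 0.76 (SE 0.26), with a limma adjusted p of 0.476, and was 0.34 without WT 6 and WT 9 and 0.62 without KO 3 and KO 4. Slc2a3, which encodes the higher-affinity GLUT3, was at 88.4, 110.04, 86.5 and 82.9 TPM in KO 1 to 4, against 35.4, 102, 75.7 and 26.7 TPM in WT 6 to 9. WT 7 exceeded 3 of the KO libraries, and the log2 fold change was 0.80 (SE 0.38; limma adjusted p = 0.567), or 0.055 without WT 6 and WT 9. Slc2a3 was the more abundant of the pair in every library. The log2 ratio of Slc2a1 to Slc2a3 averaged -1.40 ± 0.32 over KO libraries and -1.35 ± 0.40 over WT libraries (SD, n = 4 each), with a two-sided exact permutation p of 0.857.

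With all libraries, the 13 enzymes from hexokinase to pyruvate kinase had positive fold changes, with a median of 0.69 on the log2 scale and a range of 0.10 (Hk1) to 1.25 (Tpi1). Hk1 was negative under the scaling without ribosomal and top genes (-0.034) and without WT 6 (-0.020), and 9 of 13 were positive without WT 6 and WT 9. None passed over all genes by limma, and 3 had an unadjusted p under 0.05 (Tpi1, Pgam1 and Pkm), where 6.01% of all genes were higher. With the mean of the myeloid markers as a covariate 0 of the 13 did, where 1.84% of all genes were higher. All 13 stayed positive with the covariate, with a median of 0.64. Tpi1 interconverts the triose phosphates. It was at 570.04, 882, 734 and 949 TPM in KO 1 to 4, against 152, 744, 450.06 and 215 TPM in WT 6 to 9. WT 7 again lay among the KO libraries and WT 6 was lowest (log2 fold change 1.25, SE 0.44, limma adjusted p = 0.494). Without WT 6 and WT 9 the log2 fold change of Tpi1 was 0.41. Pkm, the pyruvate kinase of proliferating cells and most tissues, was at 1108, 1434, 1198 and 1544 TPM in KO 1 to 4, against 539, 1380, 1006 and 578 TPM in WT 6 to 9. KO 1 and KO 3 were below WT 7, and the log2 fold change was 0.69 (SE 0.29, limma adjusted p = 0.530), or 0.15 without WT 6 and WT 9. Its M1 and M2 splice forms are not separated in a gene table. Gapdh, named for its abundance, was at 5220, 6839, 6269 and 7021 TPM in KO 1 to 4, against 2287, 7348, 5161 and 2529 TPM in WT 6 to 9. The highest and the lowest Gapdh values were thus both in WT libraries. Processed pseudogenes of Gapdh and other abundant glycolytic genes are numerous in the mouse genome, so how shared reads were assigned adds uncertainty to their levels.

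The order of the libraries was much alike from enzyme to enzyme. In 13 of 13, WT 6 and WT 9 were both below WT 7 and WT 8 (39.0% of all genes tested), and in 12 of 13 they were below all 6 other libraries (17.3% of all genes). WT 7 was the highest WT library in 13 of 13 (32.6% of all genes) and the highest of all 8 libraries in 8 of 13 (15.7%). Those 8 were Hk1, Gpi1, Pfkl, Pfkp, Aldoa, Gapdh, Pgk1 and Eno1. Aldoa, the dominant aldolase, averaged 1931 ± 293 TPM in KO and 1388 ± 824 TPM in WT cells, and its minor relative Aldoc 32.6 ± 12.0 and 19.8 ± 16.9 TPM (SD, n = 4 each). Eno1, the enolase, averaged 1301 ± 234 TPM in KO and 990.4 ± 496 TPM in WT cells, and Pgk1, a phosphoglycerate kinase, ranged over 585 to 795 TPM in KO and 261 to 804 TPM in WT cells. Pgam1, which shifts the phosphate of phosphoglycerate, was at 475 ± 97.0 TPM in KO and 310.1 ± 152 TPM in WT cells. The phosphofructokinase genes Pfkl and Pfkp had 61.3 ± 12.8 and 182 ± 12.1 TPM in KO and 43.3 ± 22.7 and 130.1 ± 61.2 TPM in WT cells. Gpi1, the isomerase, and Hk1, the more abundant hexokinase, had the smallest fold changes of the 13 (0.25 and 0.10), at 457 ± 39.8 and 44.0 ± 2.76 TPM in KO and 407 ± 173 and 42.0 ± 10.2 TPM in WT cells. Hk2, the inducible hexokinase, was far less abundant than Hk1, at 3.47 to 21.0 TPM in KO and 2.44 to 10.8 TPM in WT cells. KO 4 had the highest Hk2 value.

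Among regulators of flux, Pfkfb3 and Pfkfb4 make fructose-2,6-bisphosphate, an activator of phosphofructokinase, and Pdk1 blocks pyruvate dehydrogenase. Pfkfb4 was at 2.43, 2.12, 6.88 and 10.9 TPM in KO 1 to 4, against 0, 1.80, 0 and 3.54 TPM in WT 6 to 9. WT 9 exceeded KO 1 and KO 2, and the highest values were in KO 3 and KO 4, where myeloid markers were also high (log2 fold change 1.58, SE 0.62, limma adjusted p = 0.508). The log2 fold change of Pfkfb4 was 0.79 without KO 3 and KO 4, 0.47 with the myeloid covariate and 1.75 without WT 6 and WT 9. Pdk1, a known HIF-1 target, ran the other way, at 18.02, 30.2, 11.4 and 19.8 TPM in KO 1 to 4, against 44.3, 24.7, 21.2 and 35.8 TPM in WT 6 to 9. WT 6 and WT 9, lowest for most of the set, were here the 2 highest libraries. The log2 fold change was -0.66 (SE 0.32, limma adjusted p = 0.570), and Pdk1 and Slc16a1 were the 2 tested genes with negative fold changes. For Pdk1 it was -0.27 without WT 6 and WT 9, -0.36 without KO 3 and KO 4 and 0.028 without all 4. Pfkfb3 ranged over 17.7 to 34.5 TPM in KO and 11.0 to 26.1 TPM in WT cells.

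Lactate is made from pyruvate by LDH-A, the Ldha product, and exported by MCT4, the Slc16a3 product. Slc16a3 was at 38.1, 59.6, 74.5 and 97.2 TPM in KO 1 to 4, against 4.06, 54.4, 25.0 and 7.08 TPM in WT 6 to 9. Only WT 7 reached the KO range, above KO 1. Its log2 fold change, 2.05 (SE 0.68), was the largest of the 32 genes with all libraries, with a limma adjusted p of 0.472 and a two-sided exact permutation p of 0.0571. It was 0.77 without WT 6 and WT 9, below Pfkfb4 (1.75) and Ndrg1 (1.48), and 0.36 without KO 3, KO 4, WT 6 and WT 9. Slc16a1 encodes MCT1, which carries lactate in either direction, and was at 7.62, 7.26, 7.48 and 13.9 TPM in KO 1 to 4, against 17.1, 13.0, 7.64 and 7.87 TPM in WT 6 to 9, with overlapping groups. The log2 ratio of Slc16a3 to Slc16a1 was 2.18, 2.87, 3.15 and 2.72 in KO 1 to 4, against -1.84, 1.98, 1.59 and -0.13 in WT 6 to 9. Every KO ratio was above every WT ratio, by 2.33 in the means (two-sided exact permutation p = 0.0286, the smallest that 4 against 4 allows; 0.257 adjusted over 9 pairs). Without WT 6 and WT 9 the difference was 0.95. Ldha was at 1979, 2548, 2054 and 2652 TPM in KO 1 to 4, against 1044, 2217, 1685 and 1177 TPM in WT 6 to 9. WT 7 lay between the lower and the upper KO pair (log2 fold change 0.64, SE 0.24, limma adjusted p = 0.502; 0.24 without WT 6 and WT 9). Ldhb, the subunit that favours pyruvate formation, was at 3.63 to 21.2 TPM in KO and 0.347 to 13.0 TPM in WT cells.

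Of the 9 paralog pairs compared by their log2 ratio, none differed after adjustment (smallest adjusted p = 0.257, two-sided exact permutation test). The log2 ratio of Hk2 to Hk1 averaged -2.18 ± 0.95 over KO and -2.85 ± 0.49 over WT libraries (SD, n = 4 each). That of Pfkp to Pfkl averaged 1.58 ± 0.35 over KO and 1.57 ± 0.20 over WT libraries, and that of Aldoa to Aldoc 5.90 ± 0.26 and 6.22 ± 0.30. These pairs kept the same dominant paralog in all 8 libraries. Bnip3 to Bnip3l, a pair of mitophagy receptors, averaged 0.20 ± 0.86 over KO and -1.21 ± 1.20 over WT libraries (p = 0.0857 by the exact permutation test, 0.386 adjusted). The dominant member of that pair differed within both groups: Bnip3l was the higher in KO 1 and in WT 6, WT 8 and WT 9. For the remaining pairs the KO minus WT difference was -0.25 for Ldha to Ldhb, 0.39 for Egln3 to Egln1 and -0.99 for Pfkfb3 to Pfkfb4, each with overlapping groups. The signs of the Ldha and Egln pairs depended on the setting.

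**Figure D3:**
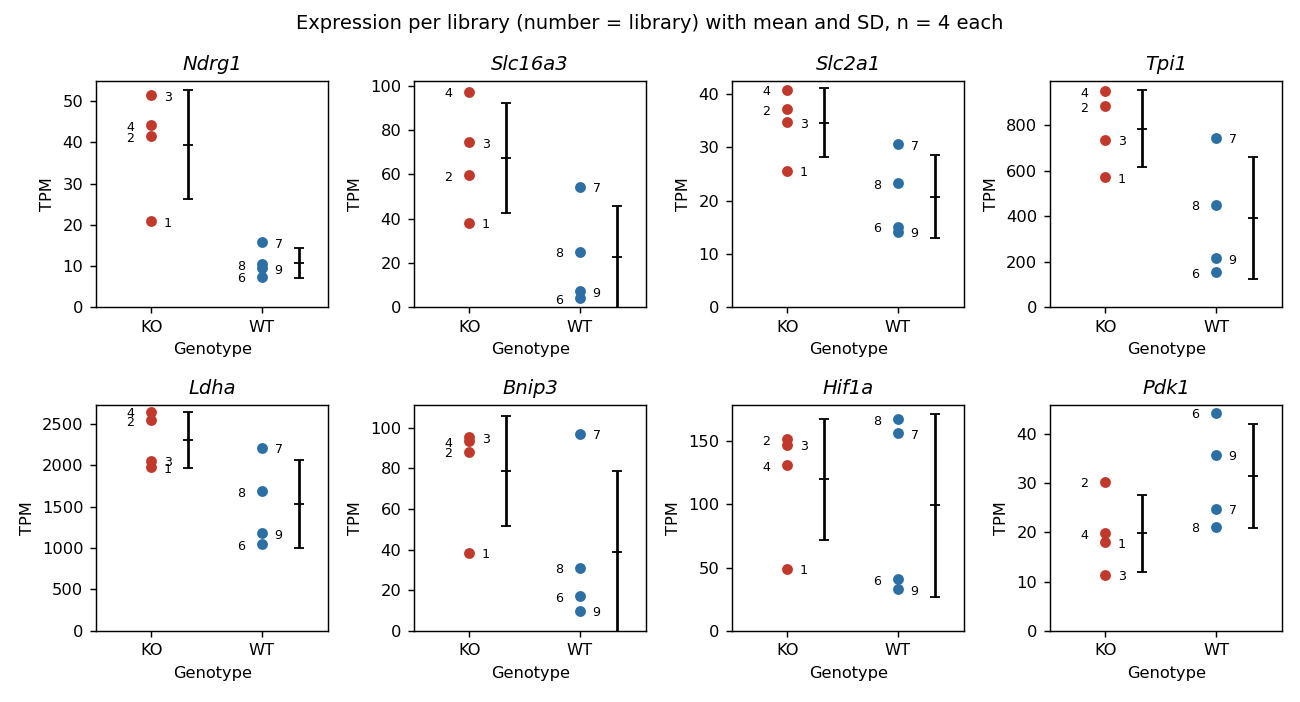
TPM of 8 genes in each library (points, numbered by library; KO in red, left of WT in blue), with the mean and SD of each genotype (n = 4 each) beside the points; SD bars are cut at 0. Only Ndrg1 has no overlap, at 20.8 to 51.5 TPM in KO and 7.32 to 15.7 TPM in WT libraries, and Pdk1 is highest in WT 6 and WT 9.

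The genotypes overlapped for all 3 oxygen sensing genes. Hif1a, added here for its role, was at 49.2, 151, 147 and 131 TPM in KO 1 to 4, against 40.6, 156, 167 and 32.6 TPM in WT 6 to 9. KO 1 fell in with WT 6 and WT 9, and the other KO libraries lay below WT 7 and WT 8. The log2 fold change was 0.50 (SE 0.59; limma adjusted p = 0.823), and -0.55 without WT 6 and WT 9. HIF-1 alpha is controlled mainly at the protein level, which was not measured. Egln3, a prolyl hydroxylase that is itself a HIF target, was at 6.93, 11.5, 11.7 and 18.5 TPM in KO 1 to 4, against 2.84, 15.3, 9.03 and 3.15 TPM in WT 6 to 9 (limma adjusted p = 0.640). Egln1, the main prolyl hydroxylase, was at 4.50, 9.98, 5.09 and 5.89 TPM in KO 1 to 4, against 2.44, 7.20, 5.21 and 3.54 TPM in WT 6 to 9 (limma adjusted p = 0.728). Both had WT 6 and WT 9 lowest and WT 7 within the KO range. Their log2 fold changes were 0.81 for Egln3 and 0.42 for Egln1, and -0.031 and -0.0079 without WT 6 and WT 9.

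Ndrg1 (chromosome 15, 66929318 to 66969640 in the mm10 GENCODE annotation) encodes a cytoplasmic protein induced by hypoxia and differentiation. It was at 20.8, 41.4, 51.5 and 44.2 TPM in KO 1 to 4, against 7.32, 15.7, 10.4 and 9.44 TPM in WT 6 to 9. The lowest KO library was above the highest WT library, WT 7. Means were 39.5 ± 13.1 TPM in KO and 10.7 ± 3.58 TPM in WT cells (SD, n = 4 each), 3.68 times as high in KO. The log2 fold change was 1.76 (SE 0.31, limma p = 0.000259, adjusted p = 0.237; two-sided exact permutation p = 0.0286). The sign of Ndrg1 held in all 21 other settings, with an unadjusted limma p of at most 0.0190 and an adjusted p of 0.0623 to 1.00. Since its groups do not overlap, leaving out libraries or changing the pseudocount, filter or limma options could not turn the sign. Only another scaling or the myeloid covariate could have done so. The log2 fold change was 1.48 without WT 6 and WT 9, and 1.42 without KO 3 and KO 4, where myeloid markers were high. With those 4 libraries left out it was 1.14 (limma adjusted p = 0.291), and with the myeloid covariate 1.39.

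The groups overlapped for the other hypoxia genes. Bnip3, a mitophagy receptor and HIF-1 target, was at 38.5, 88.3, 95.4 and 93.4 TPM in KO 1 to 4, against 17.1, 97.2, 30.9 and 9.83 TPM in WT 6 to 9. WT 7 had the highest value of all 8 and KO 1 stood well below the other KO libraries (log2 fold change 1.43, SE 0.61, limma adjusted p = 0.530). It was 0.43 without WT 6 and WT 9, and 0.085 without KO 3 and KO 4 as well. Bnip3l had a log2 fold change of 0.018, at 45.0 to 79.8 TPM in KO and 48.8 to 77.1 TPM in WT libraries. Ankrd37 (15.2 to 58.1 TPM in KO, 7.08 to 48.1 TPM in WT), Ero1l, an oxidase of the endoplasmic reticulum (18.7 to 50.5 TPM in KO, 4.72 to 51.7 TPM in WT), and P4ha1, a collagen prolyl hydroxylase (30.5 to 41.0 TPM in KO, 17.9 to 45.9 TPM in WT), had positive fold changes with all libraries (0.78, 1.00 and 0.43 on the log2 scale). Without WT 6 and WT 9 these were -0.22 for Ankrd37, 0.16 for Ero1l and -0.094 for P4ha1, and without KO 3 and KO 4 as well all 3 were negative. Mif, an abundant secreted cytokine, was at 1220 to 1534 TPM in KO and 891 to 1385 TPM in WT libraries. Ak4, a mitochondrial adenylate kinase, was at 0, 1.21, 1.50 and 1.68 TPM in KO 1 to 4 and was listed at 0 in every WT library. Adm was at 0, 0.605, 6.28 and 2.95 TPM in KO 1 to 4, against 0.813, 0, 0 and 0.787 TPM in WT 6 to 9. Vegfa was listed at 0 in KO 1, KO 2 and all WT libraries and was at most 0.421 TPM elsewhere. No fold is given for these 3 genes, since they did not reach 1 TPM in 4 or more libraries.

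Without WT 6 and WT 9 the fold changes of the enzymes ranged over -0.21 to 0.41, and that of Ndrg1 kept its sign. Ndrg1, whose groups do not overlap, could not turn when libraries were left out. WT 6 and WT 9 were below all other libraries for 12 of the 13 enzymes, so leaving them out had to lower those fold changes. Over the 13 enzymes the median log2 fold change was 0.062 without these 2 libraries, with 9 of 13 positive, against 0.69 with all libraries. Over the 32 genes it was 0.070, with 20 positive, beside -0.050 for all genes tested. Without KO 3 and KO 4 the median over the 32 was 0.58, and without all 4 it was 0.038, beside -0.019 and -0.11 for all genes. The genes at an unadjusted p under 0.05 by limma without WT 6 and WT 9 were Ndrg1 and Pfkfb4 (log2 fold change 1.75), 2 of 32, where 3.75% of all genes were higher. They were also the 2 of 32 genes with every KO library above WT 7 and WT 8, as were 7.29% of all genes tested. Pfkfb4 was low in these WT libraries (1.80 and 0 TPM in WT 7 and WT 8), and its highest WT value (3.54 TPM) was in WT 9. Hk1 and Hif1a were the 2 of 32 with every KO library below WT 7 and WT 8, against 13.5% of all genes. Leaving out WT 7 alone moved the set the other way: 23 of 32 were then higher at an unadjusted p under 0.05 (7.87% of all genes) and the median was 0.98. WT 7 was the highest WT library for 26 of the 32, so a rise was fixed for those genes. KO 3 and KO 4 were both above every other library for 4 of the 32 (Pfkfb3, Pfkfb4, Slc16a3 and Ndrg1), against 14.2% of all genes. With the mean of the myeloid markers as a covariate, 30 of 32 stayed positive with a median of 0.56, beside -0.018 and 47.9% positive for all genes. Then 1 of 32, Ndrg1, was higher at an unadjusted p under 0.05, where 1.84% of all genes were.

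**Figure D4:**
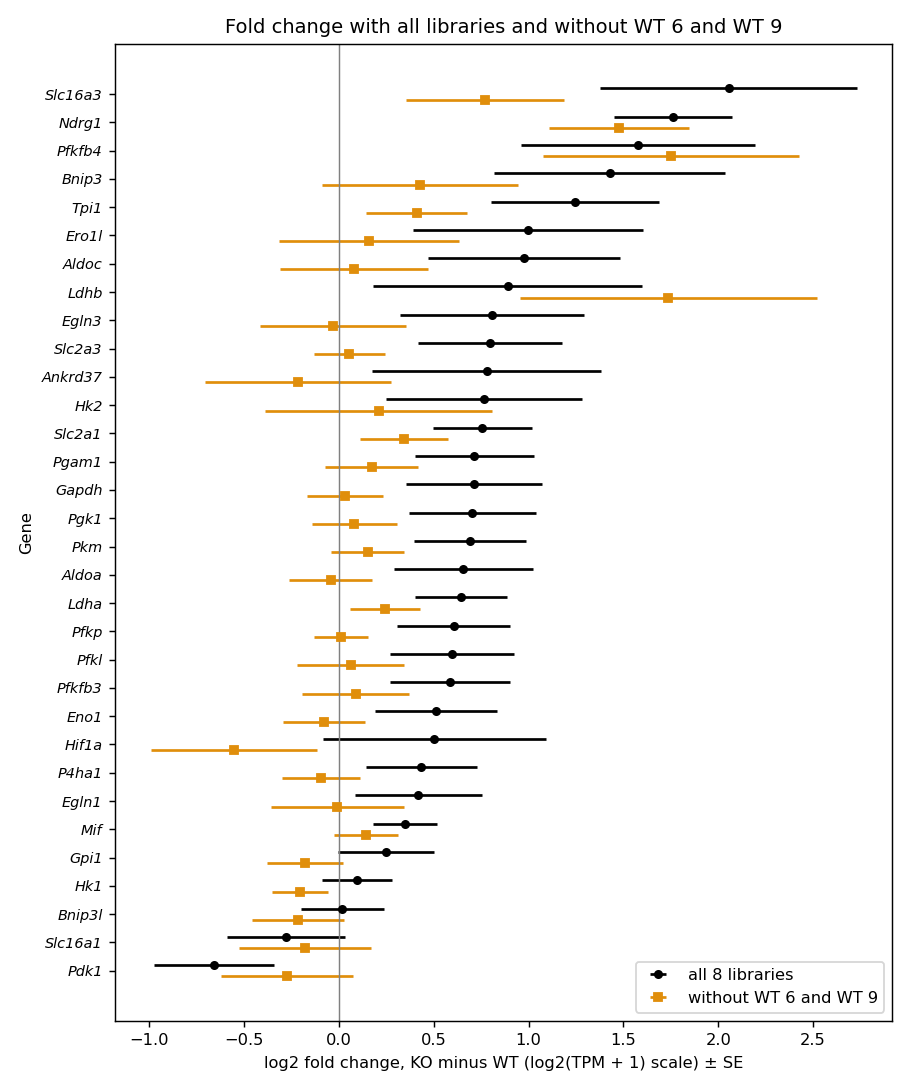
Log2 fold change (KO minus WT) with its SE for the 32 genes past the filter, with all 8 libraries (black circles) and without WT 6 and WT 9 (orange squares). The orange squares of the enzymes lie between -0.21 and 0.41, while Ndrg1 is at 1.48 and Pfkfb4 at 1.75 without these libraries. WT 6 and WT 9 were below all other libraries for 12 of the 13 enzymes, so those squares had to move down. Pfkfb4 was low in the WT libraries kept (1.80 and 0 TPM in WT 7 and WT 8), and WT 9 held its highest WT value (3.54 TPM).

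Further genes of the same pathways had medians from -0.0017 to 0.29 by list, and 0 of 91 tested passed by limma over all genes, where 8 were higher and 2 lower at an unadjusted p under 0.05 (6.01% and 3.07% of all genes). Of 13 tested other glycolysis genes, 9 were positive (median 0.21 on the log2 scale; 7 without ribosomal and top genes in the scaling) and 0 had an unadjusted p under 0.05. Pgm2, a phosphoglucomutase, had 48.5 ± 3.12 TPM in KO and 34.3 ± 19.4 TPM in WT cells (SD, n = 4 each). Pgam2, the muscle phosphoglycerate mutase, was at 2.08, 1.81, 35.3 and 3.37 TPM in KO 1 to 4, against 0, 3.60, 0.695 and 1.57 TPM in WT 6 to 9, and KO 3 was the high library. Of 11 genes of pyruvate entry to mitochondria, 8 were positive (median 0.057), or 5 by quantile normalization or without ribosomal and top genes. Dld and Mpc1, which had the smallest p, each had a log2 fold change of 0.28 (limma adjusted p = 0.654 and 0.692). The 6 tested pentose phosphate genes were positive (median 0.19), or 4 of 6 in the scaling without ribosomal and top genes. Tkt, the transketolase, had 161 ± 31.6 TPM in KO and 129.9 ± 30.3 TPM in WT cells (SD, n = 4 each). Taldo1, the transaldolase, was at 194, 202, 374 and 367 TPM in KO 1 to 4, against 212, 218, 244 and 195 TPM in WT 6 to 9. KO 3 and KO 4, with high myeloid markers, were the high libraries, and the log2 fold change of 0.32 was -0.13 without them and -0.089 with the myeloid covariate.

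Of 13 tested HIF regulators, 8 were positive (median 0.13), or 6 in the scaling without ribosomal and top genes. Groups were apart for 1 of the 13, which was lower in KO, beside 2.4% of all genes. This was Crebbp, a HIF coactivator, at 13.0 ± 2.11 TPM in KO and 17.6 ± 1.46 TPM in WT cells (SD, n = 4 each). Its log2 fold change was -0.42 (limma adjusted p = 0.527). Epas1, which encodes HIF-2 alpha, averaged 7.01 ± 2.70 TPM in KO and 3.78 ± 1.93 TPM in WT cells (limma adjusted p = 0.578). Of 33 tested further hypoxia targets, 23 were positive (median 0.29), beside 55.2% of all genes, and 6 were higher and 1 lower at an unadjusted p under 0.05, beside 6.01% and 3.07%. Groups were apart for 2 that were higher and 1 that was lower, beside 2.62% and 2.4% of all genes. Kdm4b, a histone demethylase, was at 7.28, 7.56, 9.27 and 7.15 TPM in KO 1 to 4, against 14.2, 14.4, 11.8 and 11.4 TPM in WT 6 to 9. Every KO value was below every WT value (log2 fold change -0.66, SE 0.18, limma adjusted p = 0.395). Fam162a, a mitochondrial protein gene induced by HIF-1, was at 189, 237, 233 and 237 TPM in KO 1 to 4, against 86.2, 167, 169 and 118 TPM in WT 6 to 9. Here every KO value was above every WT value, as for Ndrg1 (log2 fold change 0.77, SE 0.22, limma adjusted p = 0.395). Fosl2, a transcription factor subunit named after its values were seen, was the other one apart, at 16.0 to 31.9 TPM in KO and 5.90 to 15.3 TPM in WT libraries (log2 fold change 1.08, SE 0.34, limma adjusted p = 0.448).

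Of 15 genes of the mTORC1 and Myc axis, 7 were positive, with a median of -0.0017 on the log2 scale (4 positive without ribosomal and top genes in the scaling). Slc3a2, the heavy chain of amino acid transporters, had 204 ± 33.5 TPM in KO and 143 ± 44.3 TPM in WT cells (SD, n = 4 each; limma adjusted p = 0.527). Akt2, a kinase that promotes glucose uptake in insulin-responsive tissue, was at 105, 90.1, 93.3 and 90.9 TPM in KO 1 to 4, against 77.2, 77.4, 79.5 and 81.0 TPM in WT 6 to 9. The groups did not overlap, and the log2 fold change was 0.26 (SE 0.11, limma adjusted p = 0.537). Akt2 was the 1 gene of the 15 that was apart and higher in KO, beside 2.62% of all genes tested.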

How the data were processed

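The 8 libraries (4 KO, 4 WT), each from sorted CD8+ T cells, were made by a modified SMART-Seq2 method with Nextera XT and sequenced as read pairs of 38 bases, per the labels' protocols. The deposited table gives, per the file name, a TPM-normalized count by the authors, treated here as a score: whole numbers that summed to 2223162 to 3342847 per library. The submitters' processing notes name RSEM 1.3.3 and build mm10. Neither the aligner nor the annotation nor how values were scaled and rounded is given in the sources used here. Between 11935 and 13300 genes per library were above 0. Read depth is unknown, so no counting interval is given, and 1 unit of the score was worth 0.299 to 0.450 TPM.

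Values were rescaled so that each library summed to 1000000, and log2(TPM + 1) was fitted with limma 3.58.1 (R 4.3.3; eBayes with trend, genotype alone in the model), after a check on simulated data. Single values were tested by exact permutation, two-sided, over the 70 possible assignments (scipy 1.17.1), with a smallest possible p of 0.0286. Replicates were separate mice, 4 per genotype by the design text. The members, lists and tests were chosen with earlier results of these data known. Values in every library are given for members whose groups do not overlap and for the 2 of smallest p in each role; other pathway lists name the 2 of smallest p. Gapdh, Hif1a and a few others shown were added after their values were seen. The planned promoter rule, limited to members whose groups do not overlap, was widened after the values were seen. The alternatives varied the pseudocount, filter, scaling and limma options, added a myeloid covariate and left out libraries. A further naive and memory marker is not reported here.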

Additional observations from a re-analysis of the deposited data

Results flagged for a closer look

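The highest or lowest library stood apart from the other 3 of its group, by its gap relative to the range of the group, in 4 of 114 groups of 4 libraries; chance marks about 1 in 20, or 5.7. Slc16a1 was at 13.9 TPM in KO 4 (others 7.26 to 7.62), and Bnip3 at 38.5 TPM in KO 1 (others 88.3 to 95.4). Pgam2 was at 35.3 TPM in KO 3 (others 1.81 to 3.37), and Fam162a at 189 TPM in KO 1 (others 233 to 237).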

How the results depend on the processing

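No paired analysis was possible because KO libraries are numbered 1 to 4 and WT libraries 6 to 9. Of the members tested (35 without a filter, 31 with the filter at 5 TPM, 32 otherwise), 0 passed in any of 21 alternatives. Leaving out 1 library at a time gave 3 to 23 members higher and 0 to 1 lower at an unadjusted p under 0.05. The members higher were 23 without WT 7 and 3 without WT 6, beside 7.87% and 3.67% of all genes. They were 4 without KO 4 or WT 9 (3.15% and 4.34% of all genes) and 5 without KO 2 or KO 3 (6.90% and 3.35%). In these alternatives 28 to 30 members were positive, with a median of 0.46 to 0.98. Between 1 and 16 had groups apart (16 without WT 7, 3 without KO 1, 2 without WT 9, beside 5.83%, 6.02% and 3.99% of all genes). Fewer libraries make separation easier. Genes past the threshold numbered 2 to 5 (5 without KO 2, 3 with all). The members higher were 1 with the myeloid covariate, likewise 1 without KO 3 and 4, then 2 when WT 6 and 9 were left out and 1 when all 4 were, beside 1.84%, 1.61%, 3.75% and 3.38% of all genes. Without WT 6 and 9 the median was 0.070, and 2 of 32 were apart and higher in KO, beside 7.29% of all genes. Without all 4 the median was 0.038, and 2 of 32 were apart and higher, beside 13.4% of all genes. In that setting 6 genes of the whole table were past the threshold. Quantile normalization and scaling without ribosomal and top genes moved the median of all genes to -0.065 and -0.081, against 0.041; the members' medians were then 0.58 and 0.56, with 29 and 28 positive, and all genes at an unadjusted p under 0.05 split 552 higher to 572 lower and 495 to 617, against 645 to 329 in the main scaling.

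Among the genes named by rule, reversed values, none of them called, were Egln1 -0.0079 and Egln3 -0.031 without WT 6 and 9; Egln3 -0.36, Pdk1 0.028, Mpc1 -0.21, Tkt -0.040 and Taldo1 -0.22 without all 4; Taldo1 -0.089 with the covariate and -0.13 without KO 3 and 4. Other members turned too: Bnip3l in 8 of 21 alternatives (lowest -0.22), Hk1 in 4 (-0.21), Ankrd37 (-0.58), Hif1a (-0.89), P4ha1 (-0.23) and Gpi1 (-0.18) in 2 each, Aldoa (-0.044) and Eno1 (-0.078) in 1 without WT 6 and 9, and Ero1l (-0.22), Gapdh (-0.044), Pfkl (-0.14), Hk2 (-0.33) and Pfkfb3 (-0.23) in 1 without all 4. The cause was not tested.

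Alternatives for the paralog ratios were added after seeing the data; 3 against 4 libraries cannot give an exact p below 0.0571. With 1 library left out the differences ranged from -0.17 to 0.12 (Slc2a1/Slc2a3), 0.31 to 1.08 (Hk2/Hk1), -0.15 to 0.12 (Pfkp/Pfkl), -0.46 to -0.20 (Aldoa/Aldoc), -0.86 to 0.50 (Ldha/Ldhb), 1.59 to 2.86 (Slc16a3/Slc16a1), 0.98 to 1.95 (Bnip3/Bnip3l), 0.16 to 0.60 (Egln3/Egln1) and -1.61 to -0.55 (Pfkfb3/Pfkfb4). Signs turned for Ldha/Ldhb with a pseudocount of 5 (0.14) and without KO 3 and 4 (0.44), Egln3/Egln1 without KO 3 and 4 (-0.072), WT 6 and 9 (-0.023) and all 4 (-0.49), Slc2a1/Slc2a3 without WT 6 and 9 (0.29) and all 4 (0.041), Pfkp/Pfkl without WT 6 and 9 (-0.051), and Hk2/Hk1 without all 4 (-0.12).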

Other observations

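Some further glycolysis and hypoxia genes were highest in KO 3 and KO 4, where myeloid markers were high too. Both libraries were above all others for 3 of 13 other glycolysis genes tested and 6 of 33 further hypoxia targets. The share over all genes tested was 14.2%. Hk3, a hexokinase found mainly in myeloid cells, was measured at 4.16, 0.605, 29.0 and 34.5 TPM in KO 1 to 4, against 1.22, 3.60, 1.04 and 3.93 TPM in WT 6 to 9. Slc2a6, a glucose transporter family member, was at 1.73, 0.907, 46.4 and 15.6 TPM in KO 1 to 4, against 1.63, 2.70, 3.47 and 3.54 TPM in WT 6 to 9. Hk3 and Slc2a6 were picked after their values were seen, and the part of myeloid RNA in them was not tested.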
